A study of Mus musculus with 7 samples.

Results

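Glucose enters a cell through a transporter, is split into pyruvate by glycolysis, and is then reduced to lactate or passed to the tricarboxylic acid (TCA) cycle. The 37 genes described here encode transporters and enzymes of that route. They were chosen by name, all 37 were found once each among the 51138 genes counted, and all 37 passed the filter on low counts. RNA was sequenced from regulatory T cells (Tregs, the T cells that hold immune responses in check) sorted from spleens of RFP-FoxP3+ mice of the strain labelled C57/BL6, which carry a red fluorescent reporter of Foxp3. There were 4 libraries from mice injected with 20 ug of FP, the fusion protein IL-2/CD25, and 3 from mice injected with 100 uL of control PBS. Every spleen was taken 72 h after the injection, and no source used here gives age, sex or the sorting gate.

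Glycolysis spends ATP in its first steps, from hexokinase to aldolase, and regains it in the steps from glyceraldehyde phosphate to pyruvate. Lactate dehydrogenase restores the NAD+ that glycolysis uses, while the pyruvate dehydrogenase complex commits carbon to the mitochondrial cycle that feeds respiration. Resting T cells rely largely on respiration, and T cells that divide are known to raise glycolysis and to export lactate.

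The largest changes after FP were those of Tpi1, Gapdh, Pgk1, Eno1, Pkm and Ldha, which rose between 2.35-fold and 3.23-fold. All 5 genes of lower glycolysis, from Gapdh to Pkm, rose. Glucose transporters and pyruvate dehydrogenase subunits did not pass the test in either direction. Pdk1, a kinase that switches pyruvate dehydrogenase off, was the member that fell, while outside the 37 its relative Pdk3 rose and Pdk2 fell. Most of the TCA cycle genes among the 37, which do not include succinate dehydrogenase, rose by less, between 1.27-fold and 2.12-fold. In all, 23 of the 37 genes rose (62.2%), where 21.0% of the 15954 genes tested did. The 1 that fell compares with 18.5% of all genes lower, and the 24 called in either direction (64.9%) with 39.5%. The FP and PBS libraries did not overlap for 23 of the 37 (62.2%), against 46.7% of all genes.

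**Figure D1:**
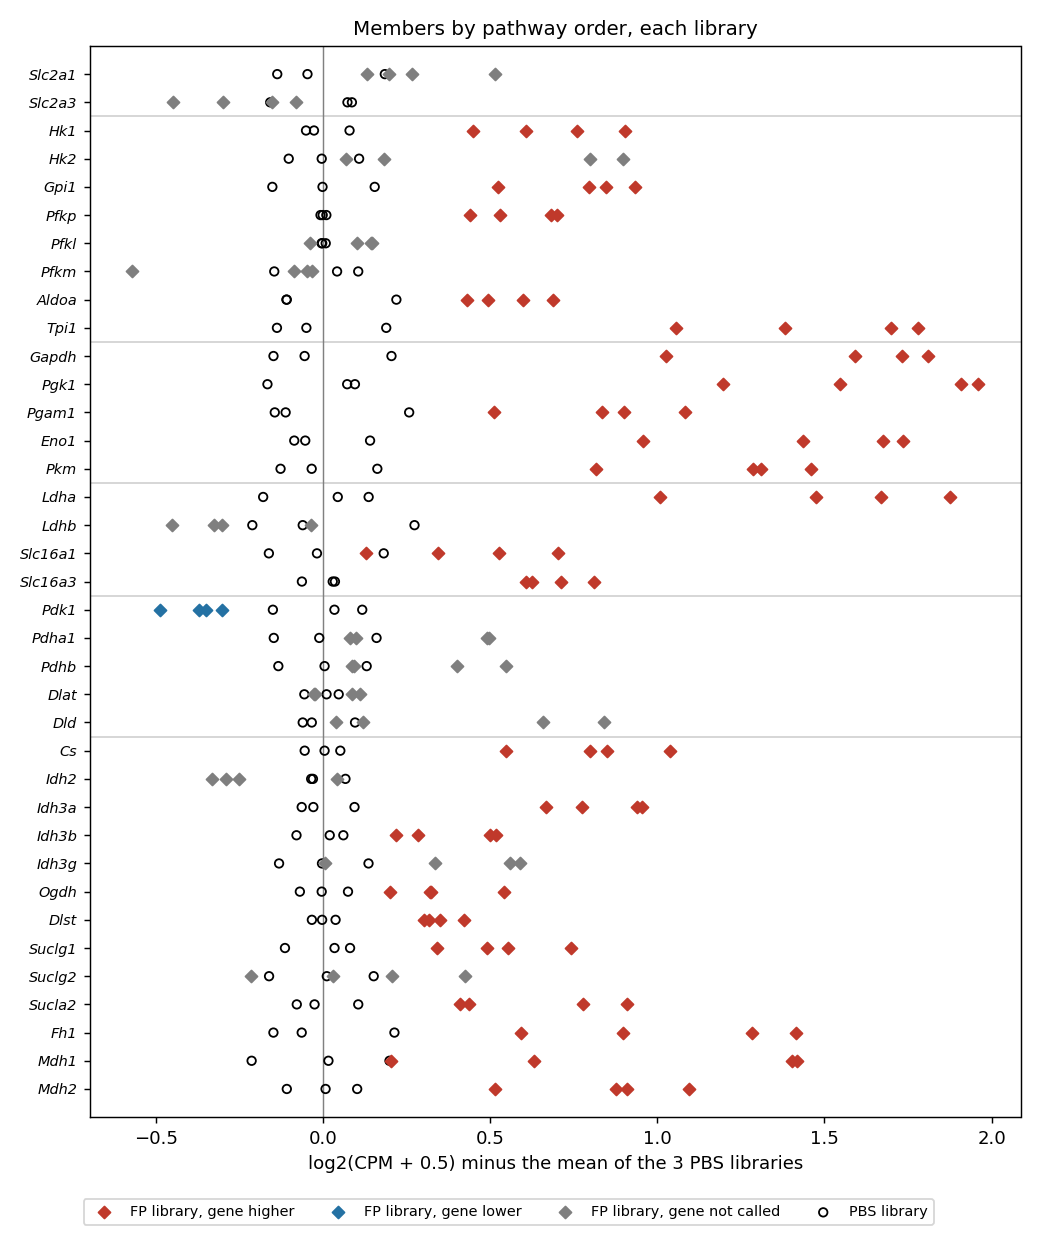
Each row is a gene in pathway order, with grey lines between glucose transport, upper glycolysis, lower glycolysis, lactate, pyruvate dehydrogenase and TCA cycle. The horizontal axis is log2(CPM + 0.5) minus the mean of the 3 PBS libraries (circles), and the 4 diamonds are FP libraries, coloured by the edgeR call at an adjusted p of 0.05. The diamonds lie farthest right for Tpi1, Gapdh, Pgk1, Eno1, Pkm and Ldha.

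Values are CPM, counts relative to the size of each library after edgeR's TMM adjustment (trimmed mean of M values), and means are given ± SD over the 4 FP or 3 PBS libraries. A gene is said to have risen or fallen where the adjusted p of edgeR's quasi-likelihood test, over all genes tested, was under 0.05. Total counts ran from 9956509 to 13429878, and the lowest group mean among the 37 genes was 10.1 CPM, far above the 0.214 to 0.322 CPM that a count of 0 (up to 3 counts) allows in these libraries. The labels do not say that replicates came from separate animals, so a p measures only how far these samples spread, which may be technical. Treg markers were present in every library and higher after FP as a list: 5 of 9 rose, where 21.0% of all genes tested did, and none fell. Their summed level was 6053 to 7208 CPM in FP and 4014 to 4519 CPM in PBS libraries. Il2ra, the receptor subunit CD25, rose 3.22-fold and Ikzf2 1.46-fold, while Foxp3, picked as the reporter's gene, was not called (484 to 596 CPM and 484 to 498 CPM).

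Markers of several other cell types moved with the groups as well. For comparison, 21.0% of all genes tested rose and 18.5% fell. All 12 of the red pulp macrophage list fell, among them Vcam1 and Slc40a1, with a summed level of 33.2 to 143 CPM in FP and 767 to 1944 CPM in PBS libraries and none at 0. Of the monocyte and neutrophil markers 4 of 5 tested fell (sums of 42.8 to 70.9 and 184 to 374 CPM), with Elane at 0 in every library. Of the dendritic cell markers 4 of 5 tested fell and 1 rose, and their sums overlapped (56.7 to 63.4 and 56.5 to 83.7 CPM). Summed plasma cell markers were higher after FP without overlap (59.3 to 78.5 and 34.97 to 37.7 CPM). Of the 5 listed, 2 were tested and 1 rose. Prdm1 was the most abundant of them, and Tnfrsf17 was at 0 throughout. Whether the Prdm1 RNA came from plasma cells or from the Tregs themselves was not tested, so this sum does not by itself mark plasma cells. The sums of B cell markers were also higher without overlap (452 to 570 and 365 to 413 CPM), but 2 of 9 rose and 2 fell. Only 2 of the 9 had a positive log2 fold change, with a median of -0.81. Of the erythroid and platelet markers 0 of 4 tested were called, and of the stroma and endothelium markers 1 of 2 rose, both with overlapping sums. Of the NK and CD8 T cell markers 1 of 3 tested fell. The part of these cell types in the results that follow was not tested. In bulk RNA, fewer cells of a type and less RNA per cell cannot be told apart.

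Neither glucose transporter passed the test. Slc2a1, the widely expressed glucose transporter that T cells induce on activation, measured 40.6, 48.3, 38.6 and 36.9 CPM in FP replicates 1 to 4 and 38.3, 30.6 and 32.6 CPM in PBS replicates 1 to 3. The groups overlapped because FP replicate 4 lay below PBS replicate 1 (log2 fold change 0.28, SE 0.13, adjusted p = 0.104). It passed as higher when PBS replicate 1 was left out (0.41, adjusted p = 0.0399). Slc2a3, the high-affinity transporter of lymphocytes and neurons, measured 88.8, 115, 98.6 and 109 CPM after FP and 129, 109 and 128 CPM after PBS. Its fold change pointed the other way (-0.24, SE 0.11, adjusted p = 0.0971), with FP replicates 2 and 4 inside the PBS range.

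In upper glycolysis 5 of 8 genes rose and 3 were not called. The median of their log2 fold changes was 0.57 where that of all genes tested was -0.05. Hexokinase traps glucose in the cell. Its main form by counts, Hk1, measured 206, 253, 229 and 184 CPM after FP and 142, 132 and 130 CPM after PBS, and rose 1.61-fold (adjusted p = 0.00103). Every FP library lay above every PBS library. The inducible form Hk2 measured 19.2, 17.9, 11.5 and 10.6 CPM after FP and 10.1, 10.9 and 9.37 CPM after PBS. FP replicates 1 and 2 stood well above the PBS libraries, FP replicate 3 just above them and FP replicate 4 among them (log2 fold change 0.54, SE 0.22, adjusted p = 0.0789), and without FP replicate 4 it passed as higher (0.68, adjusted p = 0.0170). Gpi1, which interconverts the hexose phosphates, rose 1.71-fold, with means of 176 ± 18.7 CPM in PBS and 302 ± 35.6 CPM in FP libraries.

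Phosphofructokinase, the main control point of glycolysis, is made from 3 genes, and they did not move alike. Pfkp, named for its platelet form, measured 180, 202, 200 and 169 CPM after FP and 124, 124 and 125 CPM after PBS, a rise of 1.51-fold (adjusted p = 0.000652). The PBS values were almost identical and all FP values lay above them. Pfkl, the liver form, measured 56.5, 56.4, 54.8 and 49.6 CPM after FP and 51.3, 50.9 and 50.9 CPM after PBS. FP replicate 4 fell below the narrow PBS range and the other FP libraries lay above it (log2 fold change 0.09, SE 0.09, adjusted p = 0.448). Pfkm, the muscle form, was the least abundant at 9.67 to 14.3 CPM after FP and 13.2 to 15.8 CPM after PBS (-0.18, SE 0.17, adjusted p = 0.425).

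The next steps, where the sugar is cleaved, differed in size. Aldolase, encoded by Aldoa, rose 1.46-fold (adjusted p = 0.00303), with means of 150 ± 20.4 CPM in PBS and 219 ± 17.4 CPM in FP libraries. Tpi1, which interconverts the triose phosphates that aldolase makes, measured 97.1, 103, 77.7 and 62.0 CPM after FP and 33.7, 28.5 and 26.8 CPM after PBS. Its rise of 2.86-fold (log2 fold change 1.51, SE 0.18, adjusted p = 0.000164) was close in size to that of the enzymes that follow.

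All 5 genes of lower glycolysis rose, their median was 1.48 on the log2 scale, and none of their groups overlapped. Gapdh, the step that captures reducing power as NADH, measured 694, 734, 630 and 426 CPM after FP and 241, 201 and 188 CPM after PBS (2.96-fold, adjusted p = 0.000165). Pgk1, the first step that gives ATP back, measured 117, 121, 90.8 and 71.0 CPM after FP and 32.9, 32.3 and 27.3 CPM after PBS. At 3.23-fold this was the largest fold change of the 37 genes (log2 fold change 1.69, SE 0.18, adjusted p = 0.000106). Pgk1 (ENSMUSG00000062070.12) lies on GRCm38 chromosome X, 106187100 to 106203699, plus strand.

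Enolase and pyruvate kinase showed the same order of libraries. Eno1 measured 575, 599, 488 and 350 CPM after FP and 198, 173 and 169 CPM after PBS, a rise of 2.79-fold. Pkm, which makes pyruvate and ATP, measured 660, 732, 650 and 469 CPM after FP and 298, 260 and 243 CPM after PBS, a rise of 2.35-fold. In both, FP replicate 2 was the highest library and FP replicate 4 the lowest of the FP group, still above each PBS library. The spliced forms of Pkm cannot be separated in counts per gene. Pgam1, the mutase between Pgk1 and Eno1, rose 1.82-fold at a far lower level, with PBS libraries at 10.4 ± 1.75 CPM and FP libraries at 18.9 ± 3.08 CPM (adjusted p = 0.00366).

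**Figure D2:**
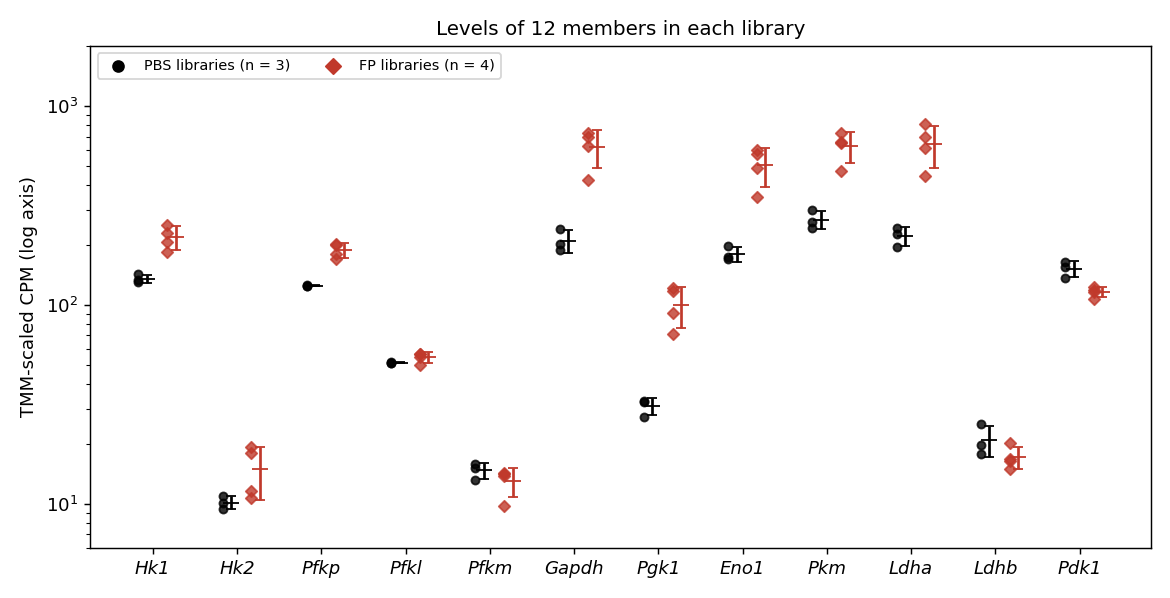
TMM-scaled CPM on a log axis for 12 genes, with each PBS library as a circle, each FP library as a diamond, and the group mean with its SD beside them. Gapdh, Pgk1, Eno1, Pkm and Ldha separate the groups widely, whereas Pfkl, Pfkm and Ldhb overlap and Pdk1 is lower after FP.

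The lactate dehydrogenase genes diverged. Ldha encodes the subunit that favours the making of lactate from pyruvate. It measured 700, 808, 612 and 443 CPM after FP and 242, 227 and 194 CPM after PBS, a rise of 2.90-fold (log2 fold change 1.54, SE 0.19, adjusted p = 0.000220). Ldhb encodes the subunit that favours the reverse reaction, and it measured 16.7, 20.2, 16.4 and 15.0 CPM after FP and 25.1, 19.8 and 17.8 CPM after PBS. The groups overlapped through FP replicate 2 (log2 fold change -0.29, SE 0.16, adjusted p = 0.166). Ldha (ENSMUSG00000063229.15) lies on chromosome 7, 46841475 to 46855627, plus strand, and Ldhb (ENSMUSG00000030246.11) on chromosome 6, 142490249 to 142507957, minus strand.

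Slc16a3 and Slc16a1, the lactate transporters among the 37 genes, rose by less than Ldha. Slc16a3, the exporter typical of glycolytic cells, measured 23.0, 20.2, 21.4 and 19.9 CPM after FP and 13.2, 12.3 and 13.2 CPM after PBS, 1.64-fold higher with no overlap (adjusted p = 0.00146). Slc16a1, which carries lactate in either direction, measured 48.9, 43.2, 32.7 and 38.0 CPM after FP and 33.9, 29.5 and 26.6 CPM after PBS (1.36-fold, adjusted p = 0.0393). FP replicate 3 lay below PBS replicate 1. The Slc16a1 call was lost on leaving out FP replicate 1 (adjusted p = 0.0818) or 2 (0.0849), or PBS replicate 2 (0.117) or 3 (0.161), and under upper-quartile factors (0.179) and library size alone (0.309).

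Promoters of 4 members are printed to set the gene with the largest rise (Pgk1) and the opposite-pointing Ldha and Ldhb beside the member that fell (Pdk1). Sequences are from RefSeq, build GRCm38.p6, which holds windows for 35 of the 37 genes. Each run is the 250 bases before an annotated start, 5′ to 3′ on the gene's strand, and lies in no exon of the GENCODE annotation used here. Where a gene has several starts, the start with the longest run outside exons was taken. They are chrX:106186850-106187099 (plus) for Pgk1, chr7:46845554-46845803 (plus) for Ldha, chr6:142507958-142508207 (minus) for Ldhb and chr2:71872974-71873223 (plus) for Pdk1. Capitals mark ACGTG or GCGTG on either strand, the core letters recognised by hypoxia-inducible factors.
Pgk1: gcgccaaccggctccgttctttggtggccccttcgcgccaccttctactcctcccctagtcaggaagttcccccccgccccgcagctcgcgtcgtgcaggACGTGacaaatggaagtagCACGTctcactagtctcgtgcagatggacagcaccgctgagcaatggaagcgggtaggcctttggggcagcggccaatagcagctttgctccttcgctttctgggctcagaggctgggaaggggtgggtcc
Ldha: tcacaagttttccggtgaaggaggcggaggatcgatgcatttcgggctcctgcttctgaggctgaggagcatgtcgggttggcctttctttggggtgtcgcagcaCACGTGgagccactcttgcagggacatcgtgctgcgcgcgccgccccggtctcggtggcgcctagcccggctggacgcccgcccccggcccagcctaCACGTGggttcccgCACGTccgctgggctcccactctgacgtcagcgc
Ldhb: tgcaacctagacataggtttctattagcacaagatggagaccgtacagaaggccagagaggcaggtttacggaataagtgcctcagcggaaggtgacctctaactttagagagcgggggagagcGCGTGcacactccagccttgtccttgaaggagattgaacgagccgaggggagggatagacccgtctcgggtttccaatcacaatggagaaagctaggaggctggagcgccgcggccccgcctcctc
Pdk1: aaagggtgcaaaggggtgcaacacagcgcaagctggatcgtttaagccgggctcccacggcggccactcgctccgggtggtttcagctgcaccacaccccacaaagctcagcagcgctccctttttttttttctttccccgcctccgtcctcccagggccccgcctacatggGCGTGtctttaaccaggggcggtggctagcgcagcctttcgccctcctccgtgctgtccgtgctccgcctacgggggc
The Pgk1 stretch held 2 matches to ACGTG (both strands counted) and 0 to GCGTG. In the Ldha stretch there were 2 copies of the palindrome CACGTG, which contains ACGTG on each strand, and 5 matches to ACGTG in all. Ldha has 2 windows, however, and CACGTG and ACGTG were found in only 1 of them. GCGTG, with 0 matches in the printed Ldha stretch, was found in 2 of the 2 full windows. Pdk1 also has 2 windows, with GCGTG in 1. The Ldhb and Pdk1 stretches each held 1 match to GCGTG and 0 to ACGTG. The printed stretches do not stand for the other members. The like stretches of Gapdh, Eno1 and Tpi1, which rose as strongly, held 0 matches to ACGTG, with 2, 1 and 0 to GCGTG. The full window of Gapdh, which adds 50 bases after the start, did hold ACGTG, however. The stretch of Pfkl, which was not called, held 0 matches to ACGTG and 1 to GCGTG (outside exons, 112 bases for Tpi1 and 197 for Pfkl).

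Over the full windows of 300 bases (250 before and 50 after a start), ACGTG or its complement was found in 23 of the 51 windows of these genes and in 19.6% of all 32851 windows. For GCGTG the numbers were 27 of 51 windows and 32.4%, and for CACGTG 6 of 51 and 7.15%. Counted per gene, ACGTG was present for 16 of the 35 members with a window and for 21.8% of all genes with one: 11 of the 22 that rose, 5 of the 12 not called and 0 of the 1 that fell. GCGTG was present for 20 of the 35 and for 35.2% of all genes, with 11 of 22, 8 of 12 and 1 of 1. CACGTG was present for 4 of the 35 and for 8.09% of all genes, with 3 of 22, 1 of 12 and 0 of 1. Windows were not matched for base composition, and genes with several starts have several windows, so these shares describe letters only.

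No subunit of the pyruvate dehydrogenase complex passed the test, and Pdk1, a kinase that inhibits it, fell. Other genes of such kinases went both ways: Pdk3 rose and Pdk2 fell (given below). Pdk1 (ENSMUSG00000006494.11, chromosome 2, 71873224 to 71903858, plus strand) measured 107, 116, 118 and 122 CPM after FP and 154, 136 and 164 CPM after PBS. It was 1.30-fold lower with no overlap (log2 fold change -0.38, SE 0.09, adjusted p = 0.00770), and lost the call without PBS replicate 3 (-0.32, adjusted p = 0.0537).

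Within the complex, the FP libraries split. Pdha1, of the catalytic subunit that decarboxylates pyruvate, measured 145, 144, 109 and 110 CPM after FP and 115, 102 and 92.5 CPM after PBS (log2 fold change 0.30, adjusted p = 0.0926). Its partner Pdhb measured 60.0, 66.5, 48.2 and 48.4 CPM after FP and 49.6, 45.4 and 41.2 CPM after PBS (0.29, adjusted p = 0.107). Dld, the dehydrogenase shared with the oxoglutarate complex, measured 72.7, 63.8, 41.4 and 43.9 CPM after FP and 43.1, 39.4 and 38.6 CPM after PBS (0.46, adjusted p = 0.0823). In all of them FP replicates 1 and 2 lay above every PBS library and FP replicate 3 overlapped the PBS range. Dlat, the core acetyltransferase, did not separate at all, at 29.9 to 32.9 CPM after FP and 29.2 to 31.4 CPM after PBS (0.04, SE 0.10, adjusted p = 0.783). Without FP replicate 4, Pdha1 (adjusted p = 0.0351), Pdhb (0.0430) and Dld (0.0303) passed as higher. Pdha1 also passed without PBS replicate 1 (0.0484), and Dld without FP replicate 3 (0.0311).

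In the TCA cycle 10 of 13 genes rose and 3 were not called, and their median was 0.54 on the log2 scale. Cs, citrate synthase, which opens the cycle, measured 225, 265, 233 and 188 CPM after FP and 133, 129 and 124 CPM after PBS (1.77-fold, adjusted p = 0.000399). The groups were well apart.

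Isocitrate dehydrogenase showed unequal subunits. Idh3a, the catalytic subunit of the NAD-dependent enzyme, measured 64.5, 63.8, 57.0 and 52.8 CPM after FP and 35.3, 32.4 and 31.6 CPM after PBS, and rose 1.80-fold (adjusted p = 0.000238). Its partner subunits changed by less: Idh3b rose 1.31-fold, with PBS libraries at 72.4 ± 3.61 CPM and FP libraries at 94.6 ± 9.96 CPM (adjusted p = 0.0124). Idh3g measured 84.5, 82.7, 70.7 and 56.2 CPM after FP and 61.6, 55.9 and 51.1 CPM after PBS and just missed the threshold (log2 fold change 0.39, adjusted p = 0.0533). It passed without FP replicate 4 (0.50, adjusted p = 0.00346), without PBS replicate 1 (0.48, adjusted p = 0.0405) and with the size factors of DESeq2 (0.40, adjusted p = 0.0455), while Idh3b was lost without PBS replicate 3 (adjusted p = 0.0678). Idh2, the NADP-dependent mitochondrial enzyme, pointed down, at 20.6, 25.4, 20.1 and 19.5 CPM after FP and 24.0, 24.1 and 25.8 CPM after PBS (-0.21, SE 0.13, adjusted p = 0.228). Only FP replicate 2 of the FP libraries reached the PBS range.

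The oxoglutarate dehydrogenase genes rose together and modestly. Ogdh measured 224, 261, 223 and 206 CPM after FP and 178, 188 and 171 CPM after PBS (1.27-fold, adjusted p = 0.0172). Dlst, its succinyltransferase core, measured 95.4, 103, 97.7 and 94.5 CPM after FP and 76.4, 78.6 and 74.8 CPM after PBS (1.27-fold, adjusted p = 0.00578). Their groups did not overlap, but leaving out PBS replicate 3 ended the call of Ogdh (adjusted p = 0.0878).

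Succinyl-CoA ligase joins a shared subunit, Suclg1, to an ADP-forming or a GDP-forming partner. Suclg1 rose 1.45-fold (adjusted p = 0.00434), with PBS libraries at 38.2 ± 2.69 CPM and FP libraries at 55.6 ± 6.53 CPM. The ADP-forming Sucla2 measured 45.9, 50.3, 35.4 and 36.2 CPM after FP and 28.6, 26.1 and 25.1 CPM after PBS, a rise of 1.57-fold (adjusted p = 0.00525). The GDP-forming Suclg2 measured 44.3, 38.0, 33.6 and 28.2 CPM after FP and 36.6, 33.1 and 29.3 CPM after PBS. Its groups overlapped and it was not called (log2 fold change 0.12, SE 0.15, adjusted p = 0.554).

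Fh1, Mdh1 and Mdh2 had the largest changes of the 13 genes listed for the cycle, which do not include succinate dehydrogenase (given below). Fh1, fumarase, measured 63.6, 58.0, 44.3 and 35.7 CPM after FP and 27.4, 22.5 and 21.2 CPM after PBS (2.12-fold, adjusted p = 0.00195). Mdh2, the malate dehydrogenase of mitochondria, measured 167, 190, 163 and 127 CPM after FP and 95.1, 89.1 and 82.1 CPM after PBS (1.82-fold, adjusted p = 0.000627). Mdh1, the cytosolic enzyme of the malate shuttle, had the widest spread: 215, 217, 126 and 93.1 CPM after FP and 92.8, 81.7 and 69.6 CPM after PBS. FP replicate 4 exceeded PBS replicate 1 by a fraction of a CPM. Its rise (1.99-fold, SE 0.30 on the log2 scale, adjusted p = 0.0328) did not pass when FP replicate 2 was left out (adjusted p = 0.0804), nor without PBS replicate 1 (0.0522), 2 (0.0854) or 3 (0.113), nor with no filter on low counts (0.120).

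The balance between genes was read as the ratio of their counts within a library, which does not depend on how libraries are scaled. The 18 pairs were isozymes, subunits, branch points, or a later and an earlier step of glycolysis (Gapdh with Pfkl and Pgk1 with Hk1). Their log2 ratios were compared by a two-sided exact permutation test over the 35 assignments of the libraries. It can give no p below 0.0286, and 10 pairs reached that value, with an adjusted p of 0.0514 over the 18 pairs, so none passed after adjustment. The sizes and the separation of libraries are therefore given as the main description.

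Ldha against Ldhb moved most. The ratio was 42.0, 40.1, 37.3 and 29.6 in FP replicates 1 to 4 and 9.64, 11.5 and 10.9 in PBS replicates 1 to 3, a 3.47-fold higher ratio (exact permutation p = 0.0286, adjusted p = 0.0514). Each FP library lay far above each PBS library. Gapdh counts per count of Pfkl rose from 4.11 ± 0.515 in PBS to 11.3 ± 1.95 in FP libraries, and Pgk1 per Hk1 from 0.228 ± 0.0173 to 0.457 ± 0.0846 (exact permutation p = 0.0286 and adjusted p = 0.0514 for each). Both pairs set a gene with a large rise over a gene that rose less or was not called. Their separation therefore follows from the fold changes above and adds no separate evidence. The same holds for the other pairs, here and below, whose libraries did not overlap, since their genes had unequal fold changes. All pairs were drawn from the 37 genes, which were chosen with earlier results of these data known. At the pyruvate branch, Ldha per Pdha1 was 4.84, 5.61, 5.64 and 4.03 after FP and 2.11, 2.23 and 2.10 after PBS, with the same p values. Pdk1 per Pdha1 went the other way, at 0.741, 0.808, 1.09 and 1.11 after FP and 1.35, 1.34 and 1.77 after PBS (exact permutation p = 0.0286, adjusted p = 0.0514).

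In some other families the libraries also did not overlap. Pfkp per Pfkl was 3.18, 3.59, 3.65 and 3.41 after FP and 2.42, 2.43 and 2.46 after PBS. Idh2 per Idh3a was 0.360 ± 0.0325 in FP and 0.747 ± 0.0686 in PBS libraries. Idh3b and Idh3g per Idh3a were 1.38-fold lower each, and Suclg2 per Sucla2 1.44-fold lower (exact permutation p = 0.0286 and adjusted p = 0.0514 for each of these ratios). Slc2a3 per Slc2a1 did not overlap either, at 2.19 to 2.95 after FP and 3.36 to 3.92 after PBS (exact permutation p = 0.0571, adjusted p = 0.0935).

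Other pairs kept nearly the same ratio. Dlst per Ogdh was 0.429 ± 0.0274 in FP and 0.428 ± 0.0108 in PBS libraries, and Pdhb per Pdha1 was 0.440 ± 0.0195 and 0.442 ± 0.00764. Their exact permutation p was 1 and 0.800. For Hk2 per Hk1, Pfkm per Pfkl, Slc16a3 per Slc16a1, Dlat per Pdha1 and Mdh2 per Mdh1 the libraries overlapped, with exact permutation p from 0.143 to 0.800 (adjusted p from 0.214 to 0.847).

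**Figure D3:**
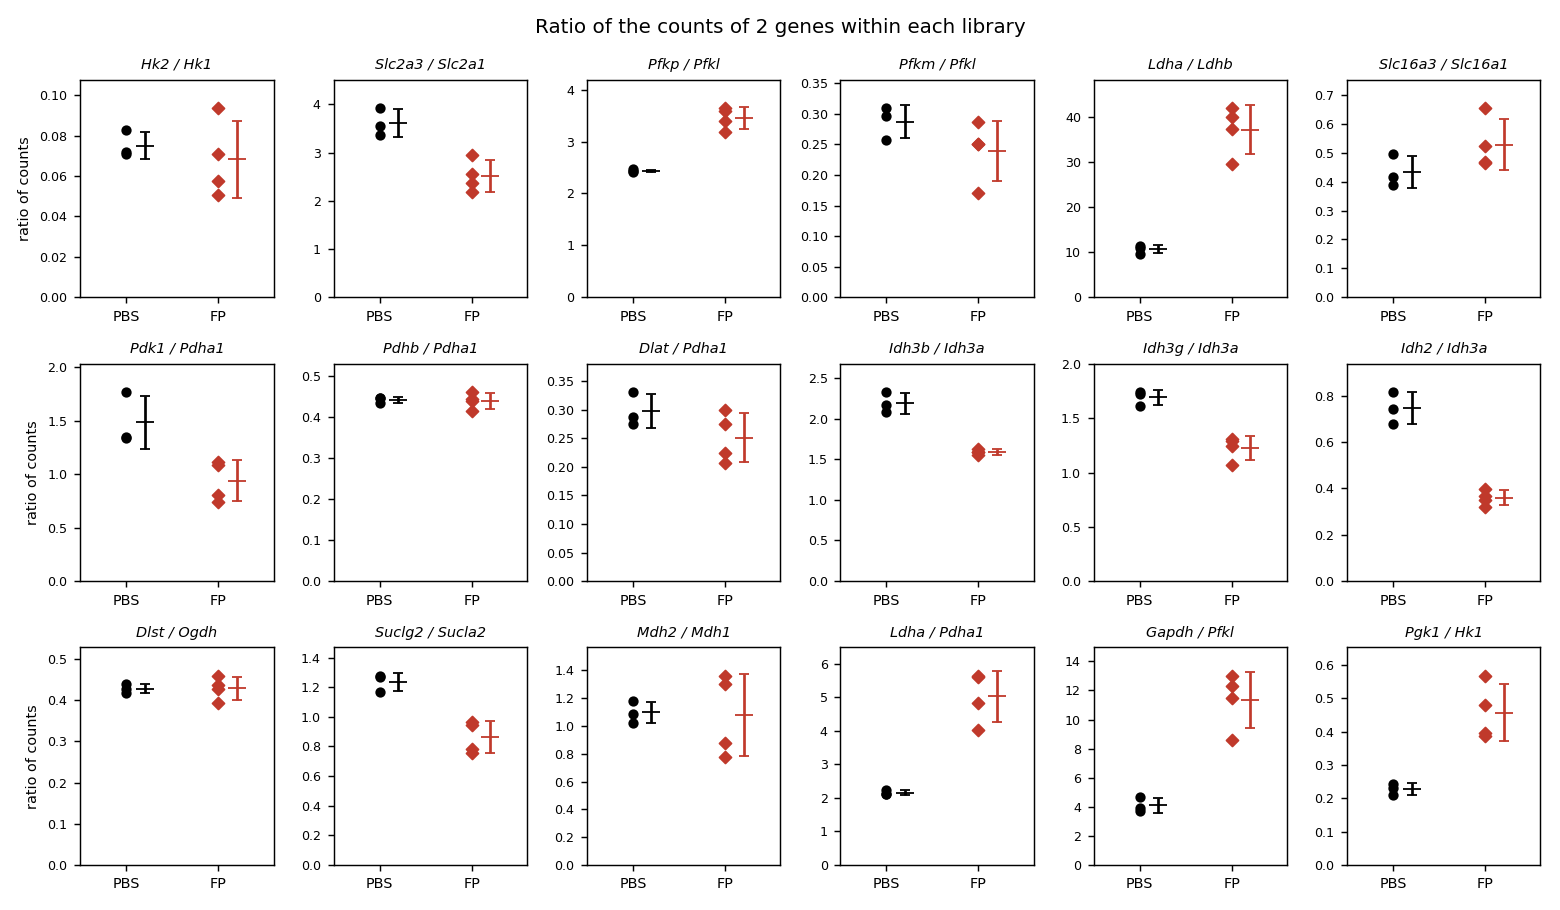
Each panel is the ratio of the counts of 2 genes, with PBS libraries as circles, FP libraries as diamonds, and the mean with its SD beside them; axes start at 0. Ldha / Ldhb is 9.64 to 11.5 in PBS and 29.6 to 42.0 in FP libraries, whereas Dlst / Ogdh and Pdhb / Pdha1 are level.

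Levels of different genes were compared as CPM per kilobase of annotated exon. Ldha was the most abundant of the 37 in both groups, at 66.7 ± 7.35 CPM per kb in PBS and 194 ± 46.7 in FP libraries. After PBS it was followed by Pkm (53.4 ± 5.56), Aldoa (51.5 ± 7.02) and Gapdh (50.8 ± 6.61), whose levels per kb lay within their spread of each other. After FP the order was Ldha, Gapdh (150 ± 33.2), Pkm (126 ± 22.4), Eno1 (93.5 ± 21.0) and Aldoa (75.3 ± 5.97), in which each level and the next lay within overlapping spreads. Hk2 was the lowest in both groups, at 1.70 ± 0.130 and 2.49 ± 0.734 CPM per kb. Pgk1 moved from 17th to 9th in this order and Tpi1 from 21st to 13th. Ranks near each other depend on the length used: by the longest transcript, Pgk1 was 20th and 11th and Tpi1 19th and 12th. By that length Gapdh was 5th after PBS and 4th after FP, behind Eno1 (4th and 3rd).

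The libraries of a group differed in a shared way across these genes. FP replicate 4 was the lowest FP library for 28 of the 37 genes, where it was the lowest for 31.9% of all genes tested, and FP replicate 2 was the highest for 24 of 37 (29.9% of all genes). Their median log2 difference from the PBS mean was 0.61, 0.69, 0.41 and 0.34 in FP replicates 1 to 4. Cell division genes were also least abundant in FP replicate 4, with a summed level of 3000 CPM for 20 genes against 4954 to 5408 CPM in the other FP libraries and 500 to 647 CPM in PBS libraries. Among PBS libraries, replicate 1 was the highest for 28 of the 37 genes (37.3% of all genes) and replicate 3 the lowest for 28 (34.5%). All 20 cell division genes rose, where 21.0% of all genes tested did. Among them were Birc5 (log2 fold change 5.30), Cdk1 (5.18), Ccnb2 (5.18) and Aurkb (5.14), which act in mitosis. The part of cell division in the metabolic genes was not tested. Without FP replicate 4, 28 of the 37 genes were called higher, and without PBS replicate 3, 19.

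Of the other transporters and isozymes of glycolysis, 6 rose, 6 fell and 7 did not pass, of 26 listed and 19 tested. Thus 31.6% rose and 31.6% fell, against 21.0% and 18.5% of all genes. The largest changes were falls of genes at low levels. Slc16a7, a pyruvate and lactate importer, fell from 4.38 ± 1.87 CPM in PBS to 0.433 ± 0.370 CPM in FP libraries, and Hk3, a hexokinase typical of myeloid cells, fell by 2.04 on the log2 scale. Eno2, the enolase named for neurons, fell by 1.41 on the log2 scale and Gapdhs, the Gapdh relative of sperm, by 1.23. The red pulp macrophage markers, lower after FP in 12 of 12, moved in the same direction, and their part in these falls was not tested.

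Regulators around phosphofructokinase and gluconeogenesis were mixed: 2 rose (22.2%), 3 fell (33.3%) and 4 did not pass. Of all genes tested, 21.0% rose and 18.5% fell. Pcx, pyruvate carboxylase, which refills the TCA cycle with oxaloacetate, rose from 4.20 ± 0.599 CPM in PBS to 18.6 ± 5.09 CPM in FP libraries (log2 fold change 2.13, adjusted p = 0.000162). Tigar, a phosphatase that lowers the activator of phosphofructokinase, rose by 0.52, while Pfkfb4 and Pfkfb2, which make that activator, fell by 1.32 and 0.93 on the log2 scale. Among the genes of pyruvate entry and dehydrogenase control, 1 rose (9.09%), 2 fell (18.2%) and 8 did not pass. The kinase gene Pdk3 rose by 0.55 and Pdk2 fell by 0.71, so the pyruvate dehydrogenase kinases did not move as a group. Lipt2, of lipoic acid transfer, fell by 1.18.

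In the list of further TCA cycle and feeder enzymes, 12 rose (60%, against 21.0% of all genes), 2 fell (10%, against 18.5%) and 6 did not pass. Sdhb and Sdhd, subunits of succinate dehydrogenase, rose by 1.20 and 1.16, and Got2, the mitochondrial aspartate aminotransferase, rose by 0.86. Gpd1, of the glycerol phosphate shuttle, fell from 4.17 ± 1.01 CPM in PBS to 0.920 ± 0.0480 CPM in FP libraries.

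The pentose phosphate pathway, which branches from glycolysis to make NADPH and ribose, was largely higher as well: 7 of 8 genes rose and 1 was not called, and their median was 0.55 on the log2 scale. Tkt, Taldo1, Pgd and G6pdx rose by 1.06, 0.87, 0.78 and 0.58. Of 14 regulators of glycolytic genes tested, 3 rose, 2 fell and 9 did not pass. Hif1a, the hypoxia-inducible factor subunit, rose from 203 ± 22.5 CPM in PBS to 365 ± 39.4 CPM in FP libraries (log2 fold change 0.85, adjusted p = 0.000351), and the kinase gene Akt1 rose by 0.89. Ppargc1b, a coactivator of mitochondrial genes, fell by 0.92 and Rptor, of the mTOR complex, by 0.27. Over all 98 genes on these lists, 31 of the 81 tested rose (38.3%, against 21.0% of all genes) and 15 fell (18.5%, the same share as of all genes), with a median of 0.12. The regulators, with 21.4% higher and 14.3% lower, lay near the shares of all genes.

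How the libraries were scaled bore on the genes with small changes. Over all genes tested the median of the log2 fold changes was -0.05 with TMM factors, and it was -0.25 when libraries were scaled by their upper quartile and -0.31 by library size alone. Under the same scalings the medians of the 37 genes were 0.54, 0.33 and 0.26, a shift down like that of all genes. Pgk1, Gapdh, Ldha, Tpi1, Eno1, Pkm, Pgam1, Fh1, Mdh2, Cs, Idh3a, Gpi1, Hk1, Slc16a3, Sucla2, Pfkp and Aldoa were called higher under every alternative run, 17 of the 23 that rose. Idh3b (adjusted p = 0.0990 and 0.347), Ogdh (0.167 and 0.559) and Dlst (0.144 and 0.540) did not pass under those other scalings, nor did Suclg1 with library size alone (0.0561). Under those scalings Slc2a3 (-0.45 and -0.51), Ldhb (-0.50 and -0.56) and Idh2 (-0.42 and -0.48) passed as lower with Pdk1 (-0.58 and -0.64). Pfkl, Dlat and Suclg2, none of them called, changed sign.

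**Figure D4:**
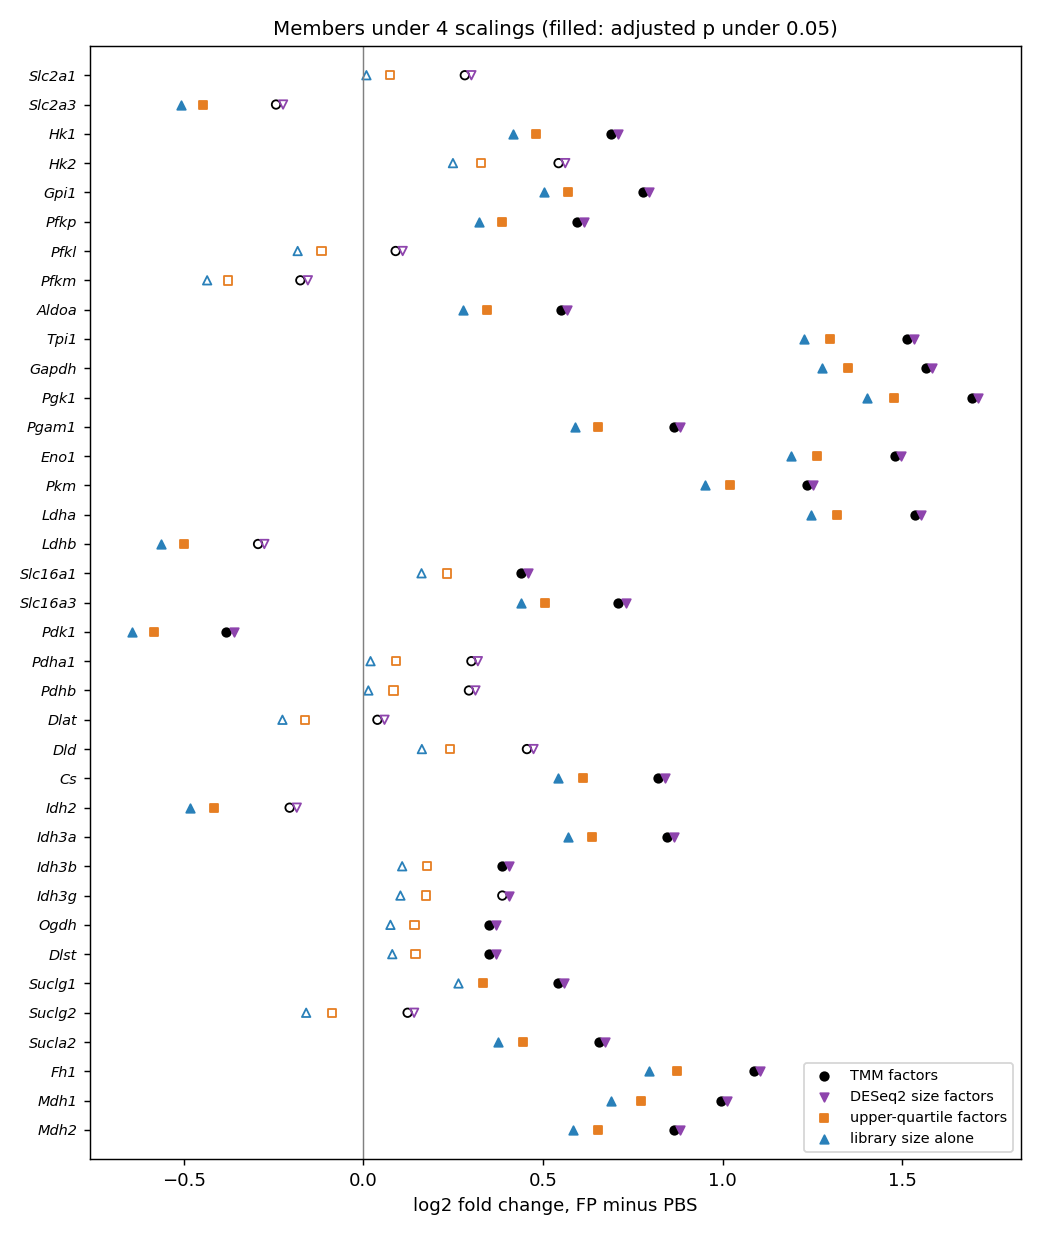
The log2 fold change (FP minus PBS) of each gene, in pathway order, under 4 ways of scaling libraries, filled where the adjusted p of edgeR was under 0.05. From Tpi1 to Ldha every symbol is filled and right of 0, and the whole pattern shifts left when the upper quartile or library size alone sets the scale.

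Some counts are less certain because of neighbours and copies. Exons of 12 of the 37 genes share bases with another annotated gene, 11 with a gene on the opposite strand and 2 with a gene on the same strand (Pfkm and Pkm), and no source used here gives the strand setting of the counting. The largest shares were 16.1% of the exon bases of Pdha1 (with Map3k15) and 15.3% of those of Pkm (with Gm49759). By sequence, 14 of the 37 have at least 1 annotated copy elsewhere, at 90% identity or more over at least 200 bases. Gapdh has 170 such copies, which held 1491 counts in the FP and 1212 in the PBS libraries, 7.13% of the counts of Gapdh and its copies together. For each of the other genes with copies this share was at most 3.61% (Pdhb). How reads that map to several places were counted was not given either.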

How the data were processed

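RNA from sorted splenic Tregs was measured in 4 FP and 3 PBS libraries. Per the labels' protocols and the design text, the authors made libraries after removal of ribosomal RNA, mapped reads to GRCm38 with STAR (2.5.0b in the submitters' processing notes) and counted them per GENCODE gene with featureCounts 1.5.0. The authors deposited raw read counts for each gene with no normalization. Columns were matched to samples by the sample descriptions, and groups come from the sample titles.

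The test was that of edgeR 4.0.16, run in R 4.3.3 (filterByExpr, TMM factors, robust quasi-likelihood test, Benjamini-Hochberg over 15954 genes, threshold 0.05). Standard errors come from the F statistic. Ratios used log2 counts with 0.5 added, and the per-library plot used log2(CPM + 0.5). Coordinates, exon lengths and overlaps come from GENCODE M21 on GRCm38, newer than the authors' annotation (30 of 37 identifiers have the same version). Copies were sought with BLAST 2.17.0 and had to cover at least 50% of the copy's longest transcript. The edgeR script was tested on simulated data.

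The 37 genes and all lists were chosen with earlier results of these data known. Named besides these are the genes of each pathway list, of cell division and of the reference genes with the largest changes among those called (up to 4). Marker lists are given as counts and sums, with the 2 most abundant genes of the Treg and macrophage lists and the most abundant plasma cell marker. Genes named outside these rules were chosen with their values in view. Alternatives were DESeq2 size factors, library size alone, upper-quartile factors, limma-voom (limma 3.58.1), the DESeq2 1.42.0 test, no filter, at least 1 CPM in 3 libraries, each library left out, and the replicate number as a block. Counting error alone is covered by the floor of 3 counts, since reads carry no molecular identifiers.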

Additional observations from a re-analysis of the deposited data

Results flagged for a closer look

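Of 104 sets of 4 FP values checked for a library far from the rest, 3 had a gap above Dixon's critical value (chance flags about 1 in 20). For Pfkm, FP replicate 1 measured 9.67 CPM and the other FP libraries 13.7 to 14.3 CPM (0.885 of the range). For Got2, FP replicate 4 measured 56.2 CPM and the others 79.0 to 82.0 CPM (0.885). For Col1a1, a collagen gene on the stroma list, FP replicate 4 measured 2.64 CPM and the others 1.28 to 1.40 CPM (0.915).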

How the results depend on the processing

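Across all genes, 6308 were called in either direction, 4088 to 7277 with a library left out. Higher calls were 3355, and 2023 with library size alone. Lower calls were 2953, and 4823 with upper-quartile factors, 5046 with library size alone and 1774 to 3389 with a library left out. Without PBS replicate 2 the lower calls were 1869, and without PBS replicate 3 they were 1774. Of the 37 genes, 18 to 25 were called higher under the scalings, filters and tests and 19 to 28 with a library left out. The number called lower was 1, and 4 with upper-quartile factors, 4 with library size alone and 0 to 1 with a library left out, 0 being without PBS replicate 3. The median log2 fold change of the 37 genes was 0.54, and 0.33 and 0.26 under those scalings. Outside the 37, Slc25a12 and Rheb changed sign with library size alone (-0.011 and -0.019) and were not called there. Exon length moved 64 of 74 levels per kb by more than the SD when the longest transcript was used. Of 162 recomputed ratios, 156 moved by less than the SD within a group.

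Replicate numbers do not pair the samples by the labels, and the deviations of same-numbered libraries correlated at 0.246, 0.0588 and 0.116. The highest correlation of all was 0.42, between FP replicate 4 and PBS replicate 3. FP replicates 1 and 2 each correlated best with PBS replicate 1 (0.246 and 0.245), and FP replicate 3 with PBS replicate 3 (0.116). The block below follows the replicate numbers, not these correlations. With the replicate block on replicates 1 to 3, 7839 of all genes and 30 of the 37 were called, against 7277 and 29 for the same libraries with no block. The block is an alternative only, and the cause of these differences was not tested. Depth limits the least abundant genes, Hk2, Pgam1 and Pfkm, most.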

Other observations

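Genes often used as constant references for expression were not constant between the groups. Of 15 such genes tested, 11 rose (73.3%, against 21.0% of all genes), 0 fell (18.5% of all genes did) and 4 did not pass in edgeR. The purine salvage gene Hprt rose by 1.41 on the log2 scale, the cyclophilin gene Ppia by 1.31, the transferrin receptor gene Tfrc by 1.28 and Actb, of the cytoskeleton, by 1.05. Gapdh, another gene of this use, rose by 1.57. Polr2a (-0.03), Sdha (-0.05) and Tbp (-0.22), singled out with values in view, did not pass.

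Annotated copies of Gapdh held 1491 counts in 4 FP libraries and 1212 in 3 PBS libraries, while Gapdh itself held 27573 and 7611.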
